A study of Caenorhabditis elegans with 12 samples.

Results

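The 7 genes examined here, acox-1.1, acox-1.2, acox-1.3, acox-1.4, maoc-1, dhs-28 and daf-22, encode the enzymes that shorten fatty acid side chains by beta-oxidation in the peroxisome of Caenorhabditis elegans. They were chosen by name for their place in that pathway, from the 46748 genes of the count table, and all 7 of 7 passed the filter on low counts that left 16618 genes for testing. Total RNA of whole hermaphrodites aged 5 days was sequenced as TruSeq RNA libraries, 12 in all, which form 4 groups of 3. Animals of the strain CF1038, which carries the deletion daf-16(mu86) in the FOXO transcription factor gene, were fed bacteria for RNAi against bcat-1, a branched-chain amino acid aminotransferase gene. Their controls were CF1038 daf-16(mu86) animals on the empty vector L4440, so both of these groups lack normal daf-16. Animals of TU3311, labelled as carrying a sid-1 transgene for neuronal RNAi, were fed bacteria for RNAi against daf-7, a dauer-pathway gene for a TGF-beta ligand, and their controls were TU3311 on L4440. The TU3311 transgene is known to drive sid-1, a double-stranded RNA channel gene, from the neuronal unc-119 promoter, and both TU3311 groups carry it. No wild type without a transgene was sequenced, so a difference between the strains is not one of daf-16 alone.

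Peroxisomal beta-oxidation removes carbon units from very long fatty acyl chains in 4 enzymatic steps, which are oxidation, hydration, dehydrogenation and thiolytic cleavage. In C. elegans the same steps trim the side chains of ascarosides, glycolipids of the sugar ascarylose that serve as dauer pheromone, mating cues and aggregation signals. The intestine and epidermis are the main tissues known to make them, and worms lacking DAF-22 cannot make the short-chained ascarosides and store fat in enlarged droplets. The acyl-CoA oxidases ACOX-1.1 to ACOX-1.4 work as homodimers or mixed dimers that differ in the side chains they accept, while MAOC-1, DHS-28 and DAF-22 serve the later steps for all of them.

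The first step is encoded by 4 neighbouring genes on the plus strand of chromosome I (WBcel235 throughout). acox-1.1 (WBGene00008564) lies at 12938555 to 12942227, acox-1.2 (WBGene00008565) at 12942280 to 12946588, acox-1.3 (WBGene00008566) at 12946932 to 12951099 and acox-1.4 (WBGene00008567) at 12951134 to 12954003. The gaps between them are 52, 343 and 34 bases in that order. maoc-1 (WBGene00017123, chromosome II, 7196276 to 7197495, plus strand), dhs-28 (WBGene00000991, chromosome X, 6818438 to 6820080, plus strand) and daf-22 (WBGene00013284, chromosome II, 12423518 to 12425694, minus strand) stand alone. All 7 are protein-coding, and the union of their exons is 2519, 2072, 2106 and 2070 bases long for acox-1.1 to acox-1.4, 1063 bases for maoc-1, 1409 for dhs-28 and 1333 for daf-22. No exon of any of the 7 overlaps an exon of another gene on its own strand. Exons of acox-1.4, maoc-1 and dhs-28 share 35, 105 and 76 bases with antisense genes (F08A8.8, E04F6.6 and gei-15). Whether the counting used strand is not given in the sources used here, so reads of either gene in those bases may not have been separated. The 4 acox-1 genes resemble each other in sequence, and how reads that fit several of them were counted is not given in the sources used here, so their separate values carry that uncertainty.

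The sum of gene counts per library was 30130249 to 45343624, and 13542 to 16809 genes reached 10 counts. Replicate 1 on daf-7 RNAi and replicate 1 on vector stood apart from the other 4 TU3311 libraries on the first principal component, which held 54.9% of the variance. The labels do not say whether replicates came from separate cultures, so p-values measure only how far these libraries lie apart, a spread that may be technical. The titles, but not the descriptions, carry a different number for each of the 2 strains, whose meaning the labels do not give, so strain and whatever that number marks cannot be told apart. Among the genes named in the labels, bcat-1 stood at 199 ± 29.6 CPM (SD, n = 3) in the libraries labelled with its RNAi, against 140 ± 10.2 CPM on vector (edgeR adjusted p = 0.212). daf-7 stood at 94.5 ± 55.6 CPM in the libraries labelled with its RNAi, against 8.89 ± 2.97 CPM on vector (adjusted p = 0.0556). Neither target gene was lower under its own RNAi, and gene counts do not tell the animal's transcripts from fed RNA, so the RNAi groups below are named as the labels have them. daf-16 stood at 83.5 ± 5.42 CPM in daf-16(mu86) animals on vector, against 195 ± 12.7 CPM in TU3311 on vector (adjusted p = 0.00581, and 0.0700 without daf-16(mu86) vector replicate 1).

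The enzymes of the later steps were the most abundant transcripts of the 7 and the oxidases the least. On the scale of counts-per-million per kilobase of exon (CPM per kb), over the 12 libraries, dhs-28, the (3R)-hydroxyacyl-CoA dehydrogenase gene, averaged 74.2, and 87.6% of tested genes had a lower mean. maoc-1, the enoyl-CoA hydratase gene, averaged 54.1 CPM per kb, and daf-22, the thiolase gene, averaged 39.8. The oxidase genes followed, with acox-1.1 at 13.3 CPM per kb, acox-1.2 at 7.78 and acox-1.4 at 4.61. acox-1.3 came last at 0.416 CPM per kb, above only 11.7% of tested genes. The order stayed the same for 7 of 7 genes with the gene lengths implied by the authors' deposited RPKM values. All 3 later-step genes stood above all 4 oxidase genes in each group without overlap of their libraries. In both daf-16(mu86) groups dhs-28 also stood above maoc-1 without overlap, whereas in both TU3311 groups the libraries of those genes overlapped. maoc-1 and daf-22 overlapped in all 4 groups.

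The lower part of the order of group means differed between the strains. In both daf-16(mu86) groups acox-1.2 came next after acox-1.1, its libraries overlapped those of acox-1.1, and acox-1.4 lay below both without overlap. In both TU3311 groups the mean of acox-1.4 exceeded that of acox-1.2, with overlapping libraries. The means of acox-1.4 and acox-1.2 were 7.14 and 5.86 CPM per kb on vector, but 7.10 and 6.92 under daf-7 RNAi. In replicate 3 of both TU3311 groups acox-1.2 was the higher of the 2. acox-1.3 was below every other gene in each group.

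**Figure D1:**
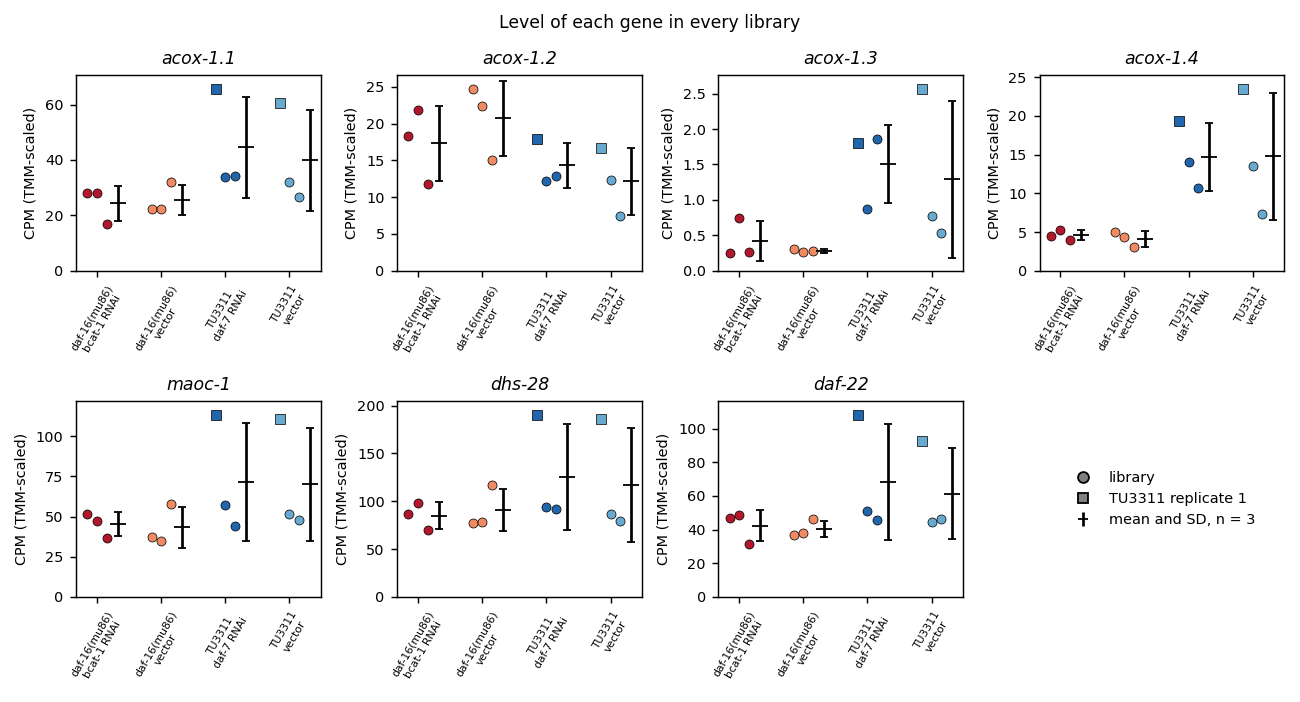
Each panel shows 1 of the 7 genes, with the level in TMM-scaled counts-per-million (CPM) on a linear axis that starts at 0 and the 4 groups along the bottom. Points are single libraries, squares are replicate 1 of each TU3311 group, and bars give the mean and SD of 3 libraries. The squares of maoc-1, dhs-28 and daf-22 lie far above every other point. The means of acox-1.3 and acox-1.4 are lower in both daf-16(mu86) groups, but for acox-1.3 single libraries of the strains overlap.

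RNAi against bcat-1 was compared with vector in daf-16(mu86) animals to ask how transcripts differ under that RNAi. None of the 7 genes was called at an adjusted p under 0.05 (edgeR quasi-likelihood test, 0 of 7), none had an unadjusted p under 0.05, and DESeq2 and limma-voom called none either. In this comparison 4.32% of all tested genes were called, 4.18% higher and 0.144% lower. The 2 groups overlapped for every one of the 7 genes, whereas 29.5% of all tested genes were higher and 25.1% lower without overlap. Their median log2 change was 0.06, against 0.16 over all tested genes.

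acox-1.1, the oxidase that acts on a broad range of chain lengths, had 28.2, 27.9 and 17.0 CPM under bcat-1 RNAi, against 22.4, 22.3 and 31.9 CPM on vector. The highest vector library lay above all 3 RNAi libraries and the other vector libraries lay between them, with a log2 change of -0.07 (95% interval -0.83 to 0.69, adjusted p = 0.91). acox-1.2, whose oxidase takes shorter side chains, had 18.3, 21.9 and 11.8 CPM under bcat-1 RNAi, against 24.7, 22.4 and 15.01 CPM on vector. Its log2 change was -0.26 (-0.96 to 0.44, adjusted p = 0.629), and the lowest library was one of the RNAi group. It was lower under bcat-1 RNAi in 3 of 3 pairs of neighbouring library numbers, which the labels do not call pairs, and with these pairs as a block its log2 change was -0.27 (adjusted p = 0.189). How many of all tested genes had 1 direction in all of these pairs was not counted. acox-1.3 rested on 10, 26 and 12 counts under bcat-1 RNAi and 8, 10 and 8 counts on vector, so its log2 change of 0.56 had an interval from -0.83 to 1.95 (adjusted p = 0.598). acox-1.4 had 4.48, 5.26 and 4.00 CPM under bcat-1 RNAi, against 4.96, 4.37 and 3.02 CPM on vector (log2 0.15, -0.66 to 0.96, adjusted p = 0.811).

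The hydratase gene maoc-1 had 51.6, 47.3 and 36.9 CPM under bcat-1 RNAi, against 37.3, 34.7 and 58.0 CPM on vector. The highest and the lowest library were both on vector, and the log2 change was 0.06 (-0.76 to 0.88, adjusted p = 0.925). dhs-28 had 87.0, 97.7 and 69.9 CPM under bcat-1 RNAi, against 77.8, 78.1 and 117 CPM on vector (log2 -0.10, -0.87 to 0.67, adjusted p = 0.875). daf-22 had 46.7, 48.6 and 31.7 CPM under bcat-1 RNAi, against 36.9, 38.1 and 46.0 CPM on vector (log2 0.07, -0.69 to 0.83, adjusted p = 0.909). For acox-1.1, maoc-1, dhs-28 and daf-22 alike, replicate 3 was the lowest library of the RNAi group and the highest of the vector group. Germline and oocyte markers (12 genes) summed to 7713 to 9709 CPM under bcat-1 RNAi and 13450 to 16100 CPM on vector. In the same order neuron markers (10 genes) had 442.1 to 458.7 and 368.1 to 392.9 CPM, and embryo markers (8 genes) 54.1 to 61.6 and 37.6 to 49.25 CPM. None of these lists overlapped. Epidermis markers (8 genes) overlapped, at 256.3 to 266.2 and 265.9 to 277.9 CPM. Within them lin-26 was lower (151.6 to 196.9 and 210.8 to 221.3 CPM) and the other 7 higher (65.2 to 114.7 and 52.1 to 56.7 CPM). Body wall muscle and sperm markers overlapped. Intestine markers (11 genes) overlapped, at 25210 to 32540 CPM under bcat-1 RNAi and 23870 to 28110 CPM on vector. The yolk protein genes vit-2 and vit-6 made up most of that sum, and the other 9 intestine markers summed to 1025 to 1286 CPM under bcat-1 RNAi and 1018 to 1271 CPM on vector. In RNA of whole animals, fewer cells of a type and less RNA per cell cannot be told apart, and the part of these markers in the values of the 7 genes was not tested.

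RNAi against daf-7 was compared with vector in TU3311 animals in the same way. None of the 7 genes was called (0 of 7 by edgeR, DESeq2 and limma-voom), and none had an unadjusted p under 0.05. Over all genes 0% were called by edgeR, 77 had an unadjusted p under 0.05, DESeq2 called 3 and limma-voom called 0. The groups overlapped for all 7 genes, and 0.65% of all tested genes were higher and 0.644% lower without overlap. The 7 genes' median log2 change was 0.15, against 0.01 over all tested genes.

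Replicate 1 was the highest library of its TU3311 group for every gene except acox-1.3 under daf-7 RNAi, where replicate 3 was. acox-1.1 had 65.6, 33.8 and 34.4 CPM under daf-7 RNAi, against 60.6, 32.2 and 26.7 CPM on vector (log2 0.16, 95% interval -0.59 to 0.92, adjusted p = 1). acox-1.2 had 17.9, 12.2 and 12.9 CPM under daf-7 RNAi, against 16.6, 12.4 and 7.42 CPM on vector (log2 0.24, -0.46 to 0.94, adjusted p = 1). For both oxidases the other 4 libraries of the strain lay below replicate 1 of either group. acox-1.3, with 79, 33 and 58 counts under daf-7 RNAi and 114, 31 and 23 counts on vector, differed by a log2 change of 0.22 (-0.95 to 1.39, adjusted p = 1). acox-1.4 had 19.4, 14.01 and 10.7 CPM under daf-7 RNAi, against 23.5, 13.5 and 7.30 CPM on vector (log2 -0.01, -0.80 to 0.78, adjusted p = 1). The later-step genes showed the same 1 high library in each group.

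maoc-1 had 113, 57.0 and 44.4 CPM under daf-7 RNAi, against 111, 51.9 and 47.8 CPM on vector (log2 0.03, -0.79 to 0.85, adjusted p = 1). dhs-28 had 189.7, 94.3 and 92.0 CPM under daf-7 RNAi, against 186, 86.7 and 79.1 CPM on vector (log2 0.10, -0.67 to 0.87, adjusted p = 1). daf-22 had 108, 51.0 and 45.6 CPM under daf-7 RNAi, against 92.6, 44.8 and 46.4 CPM on vector (log2 0.15, -0.61 to 0.91, adjusted p = 1). In 3 of 3 pairs of neighbouring library numbers acox-1.1 and dhs-28 were higher under daf-7 RNAi, and with these pairs as a block their log2 changes were 0.18 and 0.12 (adjusted p = 1 for both). The share of all tested genes with 1 direction in all of these pairs was not counted here either. The upper ends of the 7 intervals without the block lay at log2 changes of 0.78 to 1.39 and the lower ends at -0.95 to -0.46. Changes inside those intervals remain compatible with the values in that fit, and the ends are not a limit of detection. In TU3311, deviations from group means correlated between neighbouring libraries at 0.892, 0.777 and 0.505, so the intervals hold spread that neighbours share. Intervals with the block are not given here. The response to bcat-1 RNAi minus the response to daf-7 RNAi also passed the test for none of the 7 genes, with differences of -0.50 to 0.34 on the log2 scale and adjusted p of 0.66 to 0.981. That difference was called for 0.108% of all tested genes, 0.102% with a higher and 0.00602% with a lower response.

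**Figure D2:**
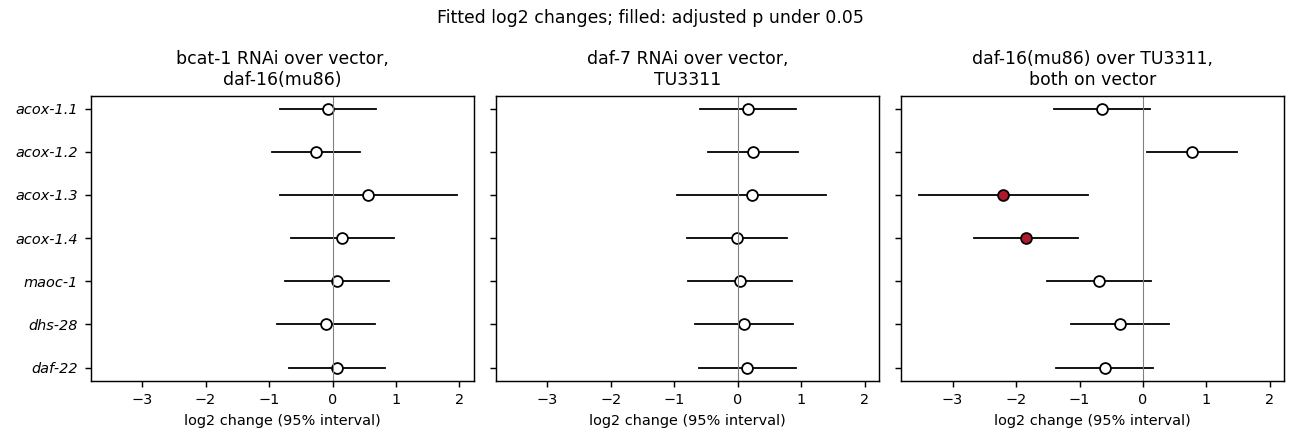
Points give the fitted log2 change of each of the 7 genes (rows) in the 3 comparisons of groups (panels) and lines give its 95% interval. Filled points passed the adjusted p threshold of 0.05, which only acox-1.3 and acox-1.4 did, both lower in daf-16(mu86) than in TU3311 on vector. The interval of acox-1.2 in that panel lies above 0, but its adjusted p was 0.0983.

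The strains were compared on vector, daf-16(mu86) against TU3311, and here the fitted changes of the oxidase genes did not share 1 direction. acox-1.4 and acox-1.3 fell in daf-16(mu86), acox-1.2 had a higher mean there without passing the threshold, and acox-1.1 and the 3 later-step genes did not pass the test. By edgeR 2 of 7 genes were called, both lower, where 6.64% of all tested genes were called and 6.5% were called lower. An unadjusted p under 0.05 was found for 3 of the 7, against 7326 of the 16618 genes. Their median log2 change was -0.64, against -0.38 over all tested genes.

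acox-1.4, whose oxidase pairs with ACOX-1.1, had 4.96, 4.37 and 3.02 CPM in daf-16(mu86) on vector, against 23.5, 13.5 and 7.30 CPM in TU3311 on vector. All 3 daf-16(mu86) libraries lay below all 3 of TU3311, as was so for 30.7% of all tested genes. The means were 4.12 ± 0.993 CPM in daf-16(mu86) and 14.8 ± 8.16 CPM in TU3311 (SD, n = 3), a log2 change of -1.84 ± 0.38 (SE, 95% interval -2.67 to -1.02, adjusted p = 0.0235). Leaving out replicate 1 on vector of TU3311 gave -1.34 with an adjusted p of 0.0518, and leaving out both TU3311 replicates 1 gave -1.33 with an adjusted p of 0.0128. The call was also lost without daf-16(mu86) vector replicate 1, 2 or 3 (adjusted p = 0.0944, 0.0904 and 0.106), while the log2 change stayed between -1.97 and -1.77. The same gene had 4.48, 5.26 and 4.00 CPM under bcat-1 RNAi and 19.4, 14.01 and 10.7 CPM under daf-7 RNAi, so that all 6 daf-16(mu86) libraries lay below all 6 of TU3311. How many of all tested genes separate all libraries of the strains in this way was not counted.

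acox-1.3, which also pairs with ACOX-1.1 to take shorter side chains, had 0.308, 0.260 and 0.272 CPM in daf-16(mu86) on vector, against 2.56, 0.775 and 0.535 CPM in TU3311 on vector. The daf-16(mu86) values came from 8, 10 and 8 counts and those of TU3311 from 114, 31 and 23 counts, and the groups did not overlap. With the RNAi groups included the strains overlapped, since bcat-1 RNAi replicate 2 at 0.748 CPM exceeded TU3311 vector replicate 3 at 0.535 CPM. The log2 change of -2.2 ± 0.62 (95% interval -3.54 to -0.87) passed the threshold narrowly (adjusted p = 0.0498). It passed in 8 of 20 other settings. Leaving out TU3311 vector replicate 1 gave a log2 change of -1.22 and an adjusted p of 0.224, and leaving out both TU3311 replicates 1 gave -1.22 and 0.0834. The call was further lost without daf-16(mu86) vector replicate 1, 2 or 3 (adjusted p = 0.172, 0.152 and 0.106), without bcat-1 RNAi replicate 1, 2 or 3 (0.0635, 0.0534 and 0.0661) and without daf-7 RNAi replicate 3 (0.0573).

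acox-1.2 had 24.7, 22.4 and 15.01 CPM in daf-16(mu86) on vector, against 16.6, 12.4 and 7.42 CPM in TU3311 on vector. The lowest daf-16(mu86) library lay between the highest and the middle library of TU3311. The log2 change of 0.77 ± 0.33 (0.07 to 1.47) had an unadjusted p of 0.0342 and an adjusted p of 0.0983. Without both TU3311 replicates 1 it was 1.07 and passed (adjusted p = 0.0282), and it also passed with DESeq2 (1.00, adjusted p = 0.029). acox-1.1 averaged 25.6 ± 5.50 CPM in daf-16(mu86) and 39.8 ± 18.2 CPM in TU3311 on vector (log2 -0.64, -1.4 to 0.12, adjusted p = 0.156), a change that was -0.20 without both TU3311 replicates 1.

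maoc-1 averaged 43.3 ± 12.8 CPM in daf-16(mu86) and 70.1 ± 35.1 CPM in TU3311 on vector (log2 -0.69, -1.52 to 0.13, adjusted p = 0.157). dhs-28 averaged 90.8 ± 22.3 CPM in daf-16(mu86) and 117 ± 59.4 CPM in TU3311 (log2 -0.37, -1.14 to 0.40, adjusted p = 0.393). daf-22 averaged 40.3 ± 4.99 CPM in daf-16(mu86) and 61.3 ± 27.2 CPM in TU3311 (log2 -0.60, -1.37 to 0.16, adjusted p = 0.176). The libraries of the strains overlapped for all 3 genes. Without both TU3311 replicates 1 the log2 changes were -0.20 for maoc-1, 0.13 for dhs-28 and -0.17 for daf-22, with adjusted p of 0.48, 0.56 and 0.43, and the direction for dhs-28 thus turned. Body wall muscle markers (8 genes) summed to 418.5 to 544.1 CPM in daf-16(mu86) and 888.9 to 1669 CPM in TU3311 on vector. In that order germline and oocyte markers summed to 13450 to 16100 and 4216 to 10560 CPM. Neuron markers had 368.1 to 392.9 and 415 to 574.4 CPM, and sperm markers 1.27 to 3.84 and 5.85 to 27.5 CPM. Intestine markers overlapped (23870 to 28110 and 23830 to 61520 CPM). Epidermis markers had 265.9 to 277.9 and 186.8 to 250 CPM. Without lin-26 the other 7 epidermis markers went the other way, with 52.1 to 56.7 and 82.7 to 101 CPM. The part of these markers in the strain differences was not tested.

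The make-up of the acox-1 cluster describes the oxidase genes on a scale that does not depend on how libraries are scaled. It does depend on the gene lengths used. The exon union of acox-1.1, used here, is 2519 bases, against 2132 bases implied by the deposited RPKM values, and the shorter length would raise its share in every library. acox-1.2 made up 51.0, 49.4 and 33.7% of the summed CPM per kb of the 4 genes in daf-16(mu86) on vector, against 18.0, 23.3 and 19.9% in TU3311 on vector. Under RNAi its share was 39.6, 43 and 39.2% in daf-16(mu86) with bcat-1 RNAi and 19.2, 22.3 and 24.0% in TU3311 with daf-7 RNAi. All 6 daf-16(mu86) libraries thus lay above all 6 of TU3311. acox-1.4 made up 6.79 to 13.3% in the 6 daf-16(mu86) libraries and 19.6 to 25.5% in the 6 of TU3311, the reverse order, again without overlap. Replicate 1 of the TU3311 groups had acox-1.2 shares of 18.0 and 19.2%, below the 19.9 to 24.0% of the other 4 TU3311 libraries. Its acox-1.4 shares of 25.4 and 20.8% lay inside the 19.6 to 25.5% of those 4. acox-1.1 held 38.1 to 58.9% in daf-16(mu86) and 49.8 to 59.0% in TU3311. acox-1.3 held 0.539 to 1.45% in daf-16(mu86) and 1.41 to 3.4% in TU3311. Shares within other gene clusters were not computed, so a separation of the strains is not shown to be particular to these genes.

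Ratios of 2 genes within a library were compared by exact two-sided permutation tests, 15 in all, chosen after the values were seen. With 3 against 3 libraries the smallest p that these allow is 0.1, so none could pass 0.05. On vector the log2 ratio of acox-1.2 to acox-1.1 was -0.03 ± 0.67 in daf-16(mu86) and -1.42 ± 0.28 in TU3311 (SD, n = 3; exact permutation p = 0.1, 0.3 adjusted over the 15). The ratio of acox-1.4 to acox-1.1 was -2.36 ± 0.66 in daf-16(mu86) and -1.21 ± 0.33 in TU3311 (exact permutation p = 0.1, adjusted 0.3). These 2 ratios differed in opposite directions. The ratio of acox-1.3 to acox-1.1 was -6.24 ± 0.35 in daf-16(mu86) and -4.94 ± 0.56 in TU3311 (exact permutation p = 0.1, adjusted 0.3). The ratio of daf-22 to dhs-28 was -1.07 ± 0.16 in daf-16(mu86) and -0.83 ± 0.12 in TU3311, and that of maoc-1 to dhs-28 was -0.67 ± 0.08 and -0.33 ± 0.01 in the same order, both with an exact permutation p of 0.1 (adjusted 0.3). On vector the strains were without overlap for every ratio tested, and how many ratios of other genes separate them was not counted. Between RNAi and vector the exact p of the 10 ratios was 0.2 to 1 and the groups overlapped.

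**Figure D3:**
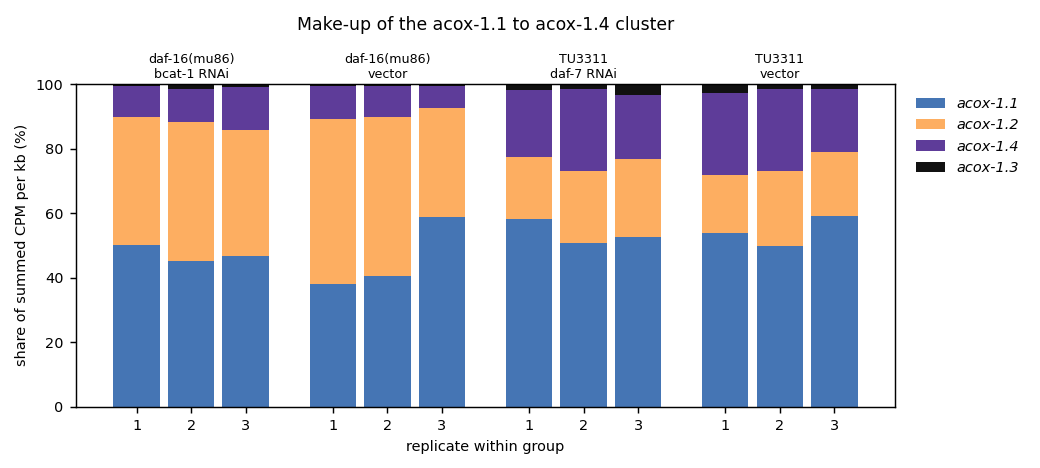
Each bar is 1 library, and its colours give the share (%) of acox-1.1, acox-1.2, acox-1.4 and acox-1.3 in the summed CPM per kb of these 4 neighbouring genes. acox-1.2 holds 33.7 to 51.0% in the 6 daf-16(mu86) libraries and 18.0 to 24.0% in the 6 TU3311 libraries, and acox-1.4 holds the larger share in TU3311.

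Within TU3311, replicate 1 on daf-7 RNAi and replicate 1 on vector held more of all 7 transcripts than the mean of the other 4 libraries. The mean CPM of these 2 libraries over that of the other 4 was 2.22 for maoc-1, 2.13 for dhs-28 and 2.13 for daf-22. It was 1.99 for acox-1.1, 2.16 for acox-1.3, 1.88 for acox-1.4 and 1.54 for acox-1.2. For acox-1.1, acox-1.4, maoc-1, dhs-28 and daf-22 the lower of the 2 exceeded the highest of the other 10 libraries of the study. For acox-1.2 the highest of those 10 was a daf-16(mu86) library at 24.7 CPM, and for acox-1.3 daf-7 RNAi replicate 3 at 1.86 CPM exceeded the lower of the 2 at 1.801 CPM. These libraries were set apart after their values were seen, so no test was made between them and the rest. Neither the share of all tested genes with such high values in these 2 libraries nor their ratios were computed. The pattern is therefore not shown to be particular to the 7 genes.

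Markers of the tissues that make ascarosides stood at other levels in those 2 libraries as well, and not all in 1 direction. The 11 intestine markers were all detected in every library, and vit-2 and vit-6 held 95.3 to 97.8% of their sum. Those 2 yolk genes summed to 56250 and 60170 CPM in replicate 1 on daf-7 RNAi and on vector, against 22880 to 38300 CPM in the other 4 TU3311 libraries. The other 9 intestine markers summed to 1556 and 1351 CPM, against 843 to 1215 CPM. Of these 9, 6 were higher in both replicates 1 than in all of the other 4, and 3 (pept-1, asp-1 and mtl-2) were not. The share of all tested genes higher in this way was not counted, so the 6 are not shown to be unusual. The epidermis list did not move as 1. The regulator gene lin-26 stood at 85.3 and 85.9 CPM there, against 163.5 to 179.2 CPM in the other 4, while the other 7 epidermis markers summed to 122 and 101 CPM, inside the 82.7 to 187 CPM of the other 4. The 12 germline and oocyte markers summed to 4211 and 4216 CPM, against 9098 to 10620 CPM. The part of these markers in the levels of the 7 genes was not tested.

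**Figure D4:**
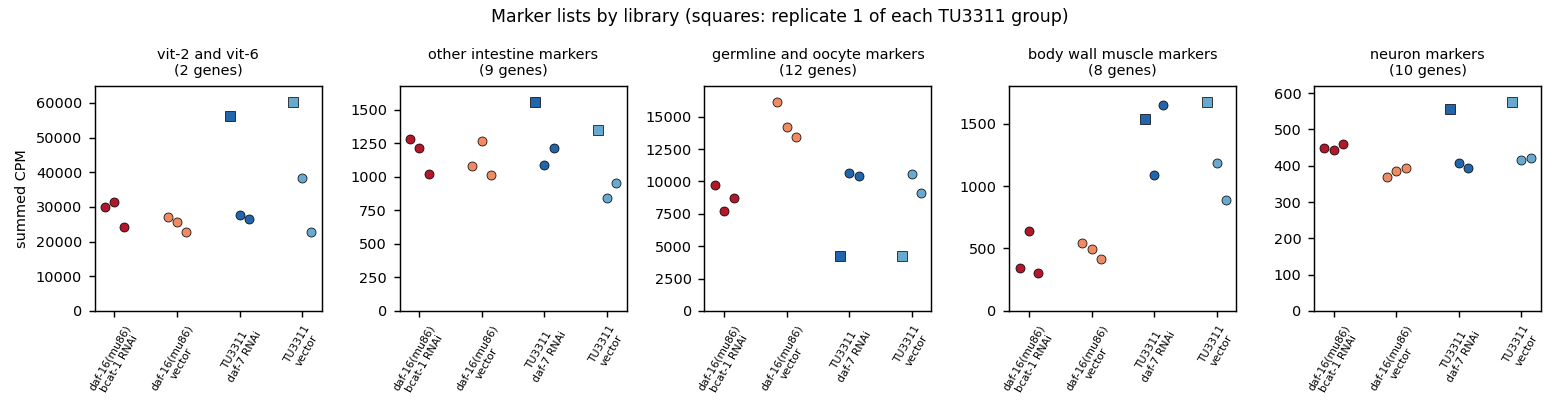
Summed CPM in each library of vit-2 and vit-6, the other 9 intestine markers and 3 further marker lists, on linear axes that start at 0, with the 4 groups along the bottom and squares for replicate 1 of each TU3311 group. In the 2 squares the yolk genes, the other intestine markers and the neuron markers are highest and germline and oocyte markers lowest, and body wall muscle markers are lower in the daf-16(mu86) libraries.

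Across the 12 libraries acox-1.1, maoc-1, dhs-28 and daf-22 followed each other closely, and acox-1.2 followed none of them. The Pearson correlation of log2 CPM between pairs of the first 4 was 0.942 to 0.969, and 0.726 to 0.901 over the 10 libraries left without the TU3311 replicates 1. acox-1.3 and acox-1.4 correlated at 0.904 with each other and at 0.643 to 0.828 with the first 4. Without the TU3311 replicates 1 these were 0.814 and 0.011 to 0.657, lowest between acox-1.4 and dhs-28. acox-1.2 correlated with the other 6 at -0.197 to 0.180, and at -0.436 to 0.083 without those 2 libraries. On deviations from group means, in which the difference between strains has no part, acox-1.2 correlated with them at 0.494 to 0.895, highest with acox-1.4. These are descriptions over libraries of 4 groups, which share scaling and 2 libraries that stand apart.

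Among 7908 tested genes with a mean of at least 10 CPM, the 5 most like daf-22 over the 12 libraries were dhs-21, prx-5, maoc-1, acox-1.1 and C26D10.6. Their Pearson correlations were 0.976, 0.970, 0.969, 0.966 and 0.966. dhs-21 is the L-xylulose reductase gene and prx-5 encodes the receptor that imports enzymes into the peroxisome. Without the TU3311 replicates 1 the correlations were 0.931, 0.880, 0.838, 0.901 and 0.818. dhs-28 stood at rank 18, with a correlation of 0.955.

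**Figure D5:**
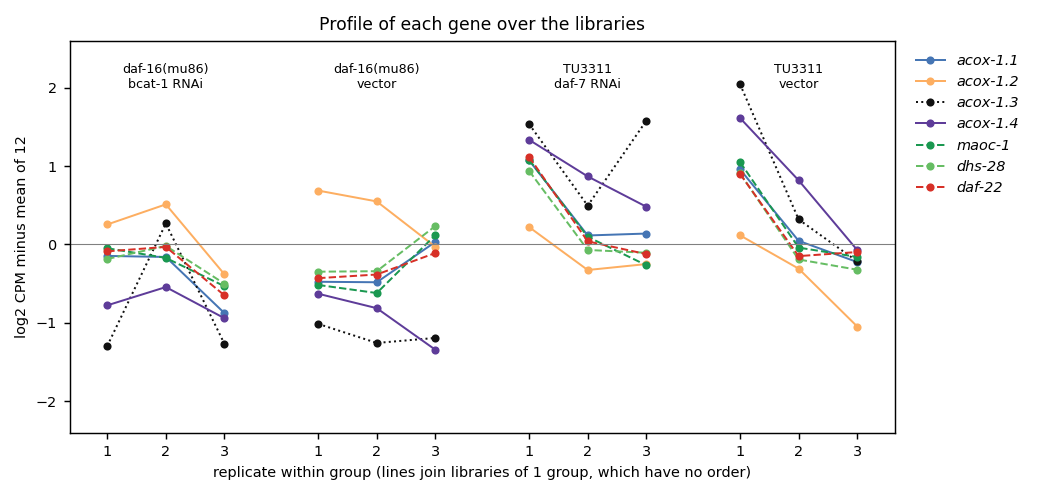
Lines show log2 CPM of each of the 7 genes minus its mean over 12 libraries, for the 3 libraries of each group. Lines join libraries of a group only for the eye, since replicates have no order. acox-1.1, maoc-1, dhs-28 and daf-22 run together, acox-1.2 lies highest in most daf-16(mu86) libraries and lowest in most TU3311 libraries, and acox-1.3 and acox-1.4 lie on the other side.

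The genes around the pathway were described by 9 lists. In the comparison of bcat-1 RNAi with vector no gene of any list was called. The gene with the smallest p was cpt-4, a carnitine palmitoyltransferase gene of the mitochondrial beta-oxidation list, whose log2 change of -2.36 ± 0.63 missed the threshold (adjusted p = 0.0525). The 16 genes of that list had a median log2 change of -0.51, against 0.16 over all tested genes. The 11 peroxin genes, which build peroxisomes and import their enzymes, had a median of 0.05, and the 5 peroxisomal ABC transporter genes one of 0.03. The 3 other acyl-CoA oxidase genes had a median of 0.11, the 11 genes of ascaroside activation and attachment 0.19, the 3 ether lipid genes 0.12 and the 3 catalase genes -0.14. The 7 regulators of fat metabolism had a median of -0.11, and the 3 of 8 ascaroside receptor genes that could be tested had one of 0.67. In the comparison of daf-7 RNAi with vector no gene of the 9 lists was called, and the medians lay between -0.11 and 0.13.

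In daf-16(mu86) against TU3311 on vector, 2 of the 11 genes for activating ascarosides and attaching groups to them were called, both lower. cest-1.1, a carboxylesterase-family gene, had 0.539, 0.468 and 0.204 CPM in daf-16(mu86), against 8.86, 6.75 and 2.05 CPM in TU3311. The groups did not overlap, and the log2 change was -3.86 ± 0.62 (adjusted p = 0.0073, and 0.0993 without daf-16(mu86) vector replicate 3). cest-3, a carboxylesterase-family gene known for attaching an indole group to ascarosides, had 0.308, 0.702 and 0.238 CPM in daf-16(mu86), against 1.13, 1.23 and 1.65 CPM in TU3311. All 3 daf-16(mu86) values were lower, with a log2 change of -1.64 ± 0.43 (adjusted p = 0.0408) that passed in 10 of 20 other settings. It was lost without daf-16(mu86) vector replicate 1, 2 or 3 (0.177, 0.0525 and 0.106), without bcat-1 RNAi replicate 1, 2 or 3 (0.0600, 0.0575 and 0.0631) and without TU3311 vector replicate 1 or 3 (0.0639 and 0.0580). The list's median was -0.85, against -0.38 over all tested genes.

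None of the genes in the other 8 lists was called between the strains. The 3 other acyl-CoA oxidase genes had a median log2 change of -0.38, the 11 peroxin genes -0.39, the 5 peroxisomal ABC transporter genes -0.53 and the 3 ether lipid genes -0.10. The 3 catalase genes had one of -0.97, in which ctl-2, the peroxisomal catalase gene, at -1.06 ± 0.41 did not pass (adjusted p = 0.0878). The transporter gene pmp-2 at -1.17 ± 0.38 did not pass either (adjusted p = 0.0667). The 16 genes of mitochondrial beta-oxidation had a median of 0.15, the 7 fat regulators 0.23 and the 3 tested receptor genes -0.72. Of the intestine markers 1 of 11 was called, the gut esterase gene ges-1, lower in daf-16(mu86) by a log2 change of -1.65 ± 0.37 (adjusted p = 0.0273). Among the other marker lists, 2 of 8 body wall muscle, 2 of 10 neuron and 1 of 9 sperm markers were called lower, and 0 of 8 epidermis, 0 of 12 germline and oocyte and 0 of 7 embryo markers were called.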

How the data were processed

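Each deposited count is the whole number of reads that the authors assigned to a gene in a library. The tools in the submitters' processing notes are featureCounts 1.4.6-p4, STAR 2.4.1d and bcl2fastq 1.8.4, with WBcel235 as the genome build. The annotation release, the strand setting and the treatment of reads that map to several places are not given in the sources used here. The authors also deposited RPKM values, in which a count is divided by gene length and by a library factor. In these files that factor followed a repeating sequence of 36 factors down the table, 12 of them the totals of these libraries, so only 2.78% of values carry their own library's total. RPKM values were used only for the gene lengths they imply.

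Groups come from strain and feeding in the labels, 4 groups of 3. edgeR 4.0.16 (limma 3.58.1, R 4.3.3) fitted all 12 libraries with TMM factors, its default filter by group and the robust quasi-likelihood F test (two-sided, 8 residual degrees of freedom). Calls were made at an adjusted p under 0.05 (Benjamini-Hochberg, 16618 genes). Adjusted p-values are edgeR's where neither DESeq2 1.42.0 nor limma-voom is named. The SE is the absolute log2 change over the square root of F. CPM are TMM-scaled, with a prior count of 2 in log2 values. Exon lengths and coordinates come from Ensembl release 115, which held 46449 of 46748 identifiers. Of 135 list entries 2 had no match. The fit was also run on simulated counts, for bcat-1 RNAi against vector only. Changes were placed in genes with high counts, and no strain difference or pairs were simulated. That run does not bear on the strain calls or on finding changes at counts as low as those of acox-1.3.

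The 7 genes, the lists and the tests were chosen with earlier results of these data known. Named genes are the 7, the genes the labels name, list genes called (up to 4) or otherwise at most 1 with the smallest p, and the 5 genes most like daf-22. Neighbouring library numbers, 1 RNAi and 1 vector library each, were checked for pairing on the values, since the labels state none. Within pairs, what remained after subtracting each group's mean correlated at 0.398, 0.285 and 0.158 in daf-16(mu86) and at 0.892, 0.777 and 0.505 in TU3311. Alternatives were other scaling factors, no filter, other sets of libraries, other tools, the pairs as a block and each library left out. The block with the compared libraries alone, the ratios within libraries and the split marker sums were added after the data were seen.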

Additional observations from a re-analysis of the deposited data

How the results depend on the processing

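In 22 other settings for either RNAi comparison (20 for acox-1.3 under bcat-1 RNAi) and 20 for the difference between the responses, none of the 7 genes was called, also with the replicate block of neighbouring library numbers, where 0 of 7 were called. Between the strains 2 were called, against 1 each with RLE factors, limma-voom and a fit of the compared libraries alone, 3 with DESeq2 and 0 to 2 with a library left out. No block could be fitted there, since pairs lie within strains, and for the difference a fit of the compared libraries alone holds all 12 and was not run. Depth limits acox-1.3 most, with 8 to 26 counts in daf-16(mu86). Of the 5 genes most like daf-22, 0 remained with Spearman correlation and 1 on deviations from group means.

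Counts over all genes moved far more. For bcat-1 RNAi, 718 genes became 330 with RLE factors, 1150 with library totals, 6116 with only its own libraries, 5896 without both TU3311 replicates 1, and 7356 and 6407 with the block in all or only its own libraries. Between the strains, 1103 became 256 (RLE), 1897 (upper quartile), 2883 (library totals), 526 (own libraries), 520 (limma-voom), 5194 without both TU3311 replicates 1 and 4736 with DESeq2, of which 3070 were higher. The difference gave 18, against 2 (upper quartile), 40 (no filter), 131 (DESeq2), 2187 without both replicates 1 and 4349 with the block. Leaving out 1 library gave 45 to 1375, 30 to 6110 and 0 to 88 genes in these 3 comparisons. Upper-quartile factors moved the median of all genes by -0.33 and RLE by 0.21 between the strains, and library totals by 0.20 for bcat-1 RNAi.

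Uncalled log2 changes turned as follows, and the cause was not tested. For bcat-1 RNAi, acox-1.1 turned to 0.084 and 0.13 and dhs-28 to 0.057 and 0.10 (upper quartile, library totals), and acox-1.4 to -0.061, maoc-1 to -0.13 and daf-22 to -0.13 (RLE, DESeq2). For daf-7 RNAi, acox-1.4 turned to 0.24 without both replicates 1, 0.11 (limma-voom), and 0.10 and 0.080 with the block. Between the strains dhs-28 turned to 0.13 without both replicates 1. In the difference, acox-1.3 turned to -0.46 (without both) and -0.14 (limma-voom), acox-1.4 to -0.059 (RLE, DESeq2) and -0.070 (without both), maoc-1 to -0.16 (RLE, DESeq2) and -0.013 (no filter), dhs-28 to 0.018 (library totals), and daf-22 to 0.079, 0.12 and 0.017 (upper quartile, library totals, without both).

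With 1 library left out, these log2 changes spanned 0. For bcat-1 RNAi they ranged from -0.19 to 0.13 (acox-1.1), -0.12 to 0.82 (acox-1.3), -0.077 to 0.30 (acox-1.4), -0.078 to 0.28 (maoc-1), -0.21 to 0.073 (dhs-28) and -0.042 to 0.24 (daf-22). For daf-7 RNAi they ranged from -0.22 to 0.60 (acox-1.1), -0.0059 to 0.53 (acox-1.2), -0.13 to 1.2 (acox-1.3), -0.32 to 0.495 (acox-1.4), -0.46 to 0.52 (maoc-1), -0.33 to 0.59 (dhs-28) and -0.34 to 0.58 (daf-22). Between the strains dhs-28 ranged from -0.70 to 0.13. In the difference they ranged from -0.67 to 0.15 (acox-1.1), -0.64 to 0.65 (acox-1.3), -0.34 to 0.43 (acox-1.4), -0.46 to 0.52 (maoc-1), -0.69 to 0.23 (dhs-28) and -0.51 to 0.41 (daf-22).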
